A study of Mus musculus with 46 samples.

Results

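The immunity-related GTPases (IRG) are a family of interferon-inducible proteins, and 7 of their genes were followed here in mice with an altered Adar gene: Irgm1, Irgm2, Igtp, Iigp1, Tgtp1, Tgtp2 and Ifi47. They were chosen by name, and all 7 were found among the 53465 genes of the count table. RNA was sequenced from the liver, the kidney and the cerebellum of 16 mice of the C57BL/6 strain, taken 23 days after birth. Every animal carried Adar P195A on 1 allele, a change in the part of the RNA-editing enzyme ADAR1 that binds left-handed nucleic acids and that is found only in its interferon-inducible isoform p150. The second allele lacked p150 in 8 of the mice (labelled P195A_p150neg, here p150-negative) and kept it in the other 8 (P195A_p150pos, here p150-positive), so no animal had 2 unaltered alleles. The labels do not give sex.

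Of 46 libraries, 41 were used. They came from 7 livers, 5 kidneys and 8 cerebella of p150-negative mice and from 7 of each organ of p150-positive mice. The other 5 held at most 0.805% of the identity-gene level typical of their labelled organ, and were left out, whereas the 41 held 58.4 to 174% of it. The 41 libraries had 0.269 to 6.24 M gene counts (M, 1000000 counts), with a median of 2.95 M. Levels are given as CPM, a gene's counts per M gene counts of its library. Genes were tested with edgeR's quasi-likelihood test, separately in each tissue, and a gene is "called" where its p, adjusted by Benjamini-Hochberg for every gene tested in that tissue, is under 0.05. Fold changes divide the p150-negative by the p150-positive level. Reads were counted per gene, so p150 itself could not be checked: Adar differed by a log2 fold change of -0.59 ± 0.335 (SE) in liver, -0.31 ± 0.505 in kidney and 0.43 ± 0.308 in cerebellum, none of them called (edgeR adjusted p = 0.317, 0.973 and 0.723).

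IRG proteins bind and hydrolyse GTP and act against microbes that live in vacuoles inside the cell. Irgm1, Irgm2 and Igtp (also called Irgm3) belong to the regulatory group, which sits on the cell's own membranes and keeps the others inactive there. Iigp1 (Irga6), Tgtp1 and Tgtp2 (both Irgb6) and Ifi47 (Irgd) belong to the effector group, which gathers on pathogen vacuoles and breaks them. Transcription of IRG genes is switched on by interferon gamma through gamma-activated sites (GAS), and by type I interferon through interferon-stimulated response elements (ISRE), where STAT2 and IRF9 take part in the binding complex.

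Of the genes, 6 lie on chromosome 11 in 2 groups (GRCm38, GENCODE M21). Irgm1 (48861968 to 48871683, minus strand), Tgtp1 (48985327 to 48994172, minus), Tgtp2 (49057194 to 49064206, minus) and Ifi47 (49076587 to 49096974, plus) form the first. Igtp (58199556 to 58207591, plus) and Irgm2 (58199618 to 58222782, plus) overlap each other 9102.6 kb further on and share 162 exonic bases. All 6 are annotated as protein-coding. The sequences of Tgtp1 and Tgtp2 are so alike that 79.4% of the 50-base windows of Tgtp1 transcripts also occur in Tgtp2. Whether reads are divided between these 2 genes or dropped from both depends on the counting, so their single values are uncertain and both may be too low. For Igtp, 11.8% of windows occur in Irgm2, and for the other 4 genes at most 7.77% occur in any other gene.

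The DNA just before the start sites given by RefSeq is shown because the genes are read below against interferon-responsive genes. RefSeq's promoter table (GRCm38.p6) held 6 of the 7 genes, all but Iigp1. Its starts differ from the GENCODE bounds above, and the printed stretches of Irgm1, Irgm2 and Tgtp1 lie inside those bounds. Each line gives the 97 bases from 110 to 14 bases before the RefSeq start, on the gene's strand, with matches to the ISRE core (GAAA, any 2 bases, GAAA) or to GAS (TTCNNNGAA) in capitals.
Igtp (chr11:58199446-58199542, plus): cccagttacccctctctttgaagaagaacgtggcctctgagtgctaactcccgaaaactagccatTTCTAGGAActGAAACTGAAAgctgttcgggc
Irgm2 (chr11:58214867-58214963, plus): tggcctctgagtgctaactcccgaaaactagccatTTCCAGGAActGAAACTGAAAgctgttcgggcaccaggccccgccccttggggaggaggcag
Tgtp1 (chr11:48992260-48992356, minus): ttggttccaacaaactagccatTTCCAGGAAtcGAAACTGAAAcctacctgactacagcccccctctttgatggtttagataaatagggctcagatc
Tgtp2 (chr11:49064226-49064322, minus): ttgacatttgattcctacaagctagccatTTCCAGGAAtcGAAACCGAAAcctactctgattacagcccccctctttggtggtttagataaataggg
Irgm1 (chr11:48871434-48871530, minus): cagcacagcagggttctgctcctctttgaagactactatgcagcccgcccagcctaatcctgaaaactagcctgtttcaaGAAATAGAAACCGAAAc
Ifi47 (chr11:49076477-49076573, plus): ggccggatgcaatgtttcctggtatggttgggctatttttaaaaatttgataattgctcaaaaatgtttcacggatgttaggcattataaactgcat

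In the full 300-base windows, read on both strands, 5 of the 6 held the ISRE core, against 3.44% of 32851 windows in the table, and 4 held a GAS, against 8.3%. Igtp, Irgm2, Tgtp1 and Tgtp2 held both, with the GAS directly upstream of the ISRE core and 2 bases between them. That 21-base arrangement was searched for after it was seen in these sequences, and 5 of 32851 windows held it, those of the 4 genes and of Gm12185, another IRG gene that overlaps Tgtp1. Irgm1 held 2 ISRE cores that overlap each other and no GAS, and Ifi47 held neither motif in its window. The printed stretches of Igtp and Irgm2 are nearly the same over much of their length, as are those of Tgtp1 and Tgtp2. These windows are therefore not independent, and their counts are no measure of enrichment over the shares in the table. A match describes letters and is no measurement of binding. The seventh gene, Iigp1, lies on chromosome 18 (60376027 to 60392634, plus strand), is protein-coding and is named without a sequence.

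Single libraries stood apart and bear on every comparison below. The summed level of the 7 genes in the p150-positive liver of animal 12 was 6100 CPM, against 443 to 680 CPM in the other 6 p150-positive livers and 680 to 2080 CPM in the p150-negative livers. In the cerebellum library labelled p150-negative of animal 2 the sum was 53 CPM, against 287 to 585 CPM in the other 7 p150-negative cerebella and 20.8 to 84.2 CPM in the p150-positive ones. The same library held 18 genes induced mainly by type I interferon at a summed 140 CPM, within the 132 to 298 CPM of the p150-positive cerebella and far from the 1730 to 3090 CPM of the other p150-negative ones, so its values go against its label. Both further libraries of animal 2 were among the 5 left out. The p150-negative kidney of animal 3 had the fewest counts of all, 0.269 M, of which 87 fell on the 7 genes. The p150-negative kidney of animal 8 was the highest kidney, at 2190 CPM. Results use all 41 libraries unless a library is said to be left out.

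**Figure D1:**
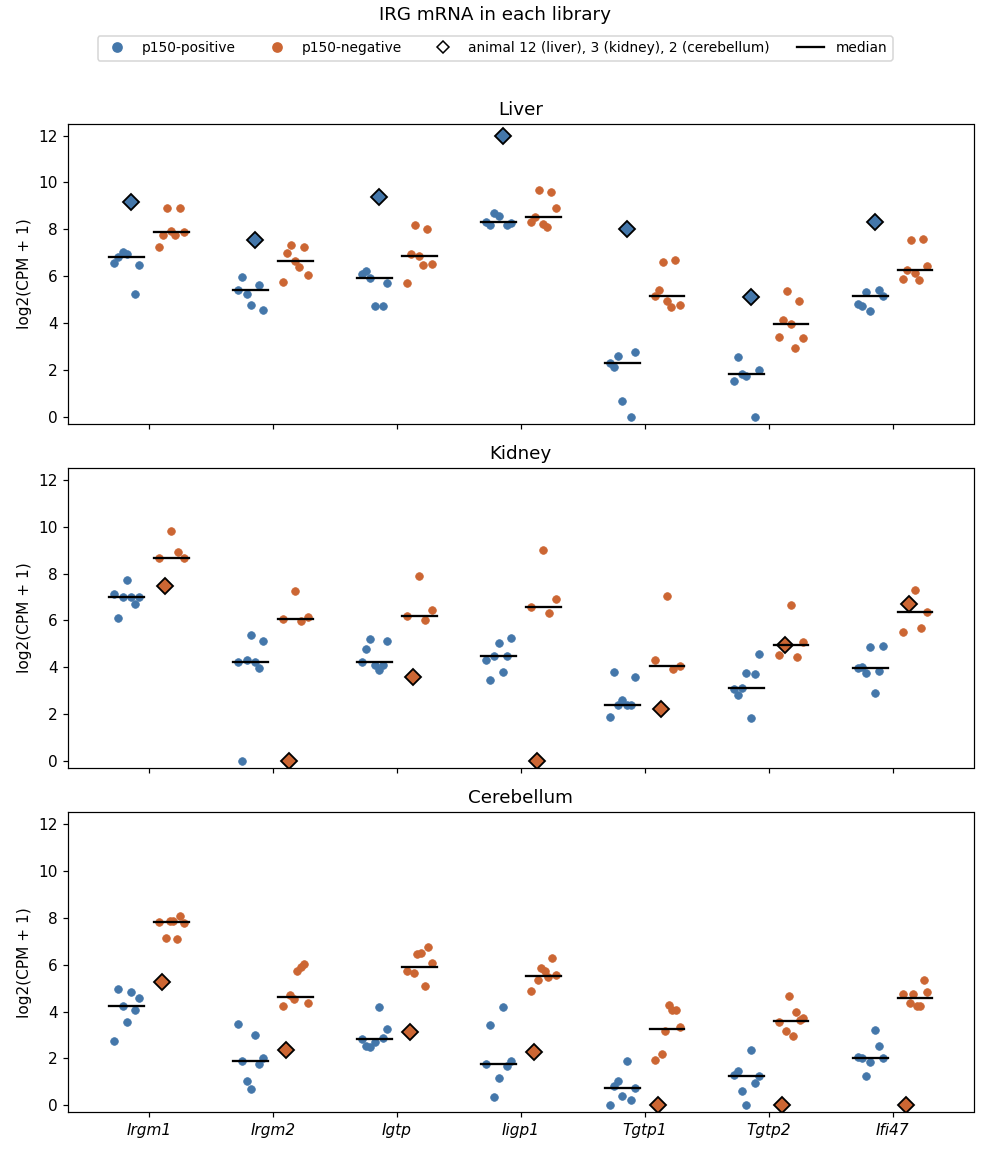
Level of each of the 7 IRG genes in each library, as log2(CPM + 1) on the y axis, with 1 panel for each tissue. Blue points are p150-positive and orange points p150-negative libraries, black lines are group medians, and outlined diamonds mark the liver of animal 12, the kidney of animal 3 and the cerebellum of animal 2. The liver diamonds lie above all other p150-positive livers, and the cerebellum diamonds lie at or below the highest p150-positive cerebellum for 6 of the 7 genes.

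In the cerebellum, IRG messenger RNA was scarce in p150-positive animals and 5.66 to 10.9-fold higher in p150-negative ones. Of the 7 genes, 4 were called higher (Irgm1, Irgm2, Igtp and Iigp1) and none lower, against 0.723% of 13146 genes called higher and 0.274% lower. All 7 had an unadjusted p under 0.05 in that direction, as did 5.16% of genes. Tgtp1 and Tgtp2, with 19 and 38 counts in all p150-positive cerebella, had enough reads for a test only through the p150-negative libraries. Their results here partly follow from that. The median log2 fold change of the 7 genes was 3.01, against 0.00353 over all genes. The count of calls differed with the fit. DESeq2 called 7, limma's voom 1 and a fit blocked on the leading part of each animal's identifier 2. Those fits called 173, 28 and 84 genes higher in all. Without the library labelled p150-negative of animal 2, all 7 were called higher, against 0.869% of genes. In all 7, every p150-negative library then lay above every p150-positive one, against 0.9% of genes. That library was singled out by its low level of these same genes, so this separation partly follows from the choice. The shares over all genes carry no such choice, so setting the 7 beside them gives no further support.

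Irgm1, a regulator, had the highest level per exon length of the 7 in p150-negative cerebellum. Its level ran from 37.3 through a median of 223 to 270 CPM in p150-negative cerebella, and from 5.76 through 17.9 to 30.5 CPM in p150-positive ones. The groups did not overlap, which held for 0.228% of genes, and the lowest p150-negative value was that of animal 2. The means were 186 ± 75.7 (SD, n = 8) and 18.6 ± 8.86 CPM (SD, n = 7), a log2 fold change of 3.29 ± 0.381 (SE, edgeR adjusted p = 1.65e-04). The second regulator, Igtp, had 7.68, 59.2 and 106 CPM (lowest, median, highest) in p150-negative and 4.6, 6.19 and 17.3 CPM in p150-positive cerebella, and changed by a log2 of 3.00 ± 0.443 (edgeR adjusted p = 7.7e-04). The third, Irgm2, had 4.21, 23.8 and 65.1 CPM against 0.64, 2.75 and 10.2 CPM, a log2 fold change of 3.01 ± 0.581 (edgeR adjusted p = 0.00918). For Igtp, Irgm2 and the effector Iigp1, the library of animal 2 was the only p150-negative one that fell within the p150-positive range.

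Among the effectors, Iigp1 had 3.84, 45.1 and 77.2 CPM in p150-negative and 0.271, 2.35 and 17.6 CPM in p150-positive cerebella, and its log2 fold change was 3.04 ± 0.641 (edgeR adjusted p = 0.0191). Tgtp1, Tgtp2 and Ifi47 had no read in the library labelled p150-negative of animal 2, which at its depth allows up to 0.549 CPM. In the other 7 p150-negative libraries their levels were 2.78 to 18.4, 6.77 to 24.1 and 17.9 to 39.2 CPM, each above every p150-positive value (at most 2.76, 4.14 and 8.29 CPM). With all libraries their log2 fold changes of 3.45 ± 0.864, 2.86 ± 0.751 and 2.50 ± 0.621 were not called (edgeR adjusted p = 0.067, 0.0863 and 0.0637). Without animal 2 they were 3.65 ± 0.696, 3.06 ± 0.561 and 2.70 ± 0.363 and were called (edgeR adjusted p = 0.00811, 0.00547 and 1.76e-04). For Tgtp1 and Tgtp2 the calls also partly follow from being tested only through the p150-negative libraries. With the reads of Tgtp1 and Tgtp2 added together, the pair changed by a log2 of 3.11 ± 0.713 with all libraries (edgeR adjusted p = 0.038).

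In the kidney, all 7 genes were 3.31 to 6.99-fold higher in p150-negative animals, and 2 passed the test, Irgm1 and Ifi47, against 0.385% of 11957 genes called higher and 0.309% lower. The median log2 fold change was 2.01 for the 7 genes and -0.0656 for all genes. All 7 had an unadjusted p under 0.05 in the direction of higher levels, as did 3.47% of genes. The count differed with the libraries and with the fit. Without the shallow kidney of animal 3, 6 of 7 were called higher (all but Irgm2), against 0.969% of genes, and for 6 (all but Tgtp2) the groups did not overlap, against 2.78% of genes. Without the high kidney of animal 8 none was called, 21 genes in all were higher, and the log2 fold changes of the 7 lay between 1.10 and 1.87.

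Irgm1 levels in the 5 p150-negative kidneys were 175, 405, 407, 484 and 904 CPM, and in the 7 p150-positive kidneys they ran from 67 through a median of 128 to 208 CPM. The value of 175 CPM, inside the p150-positive range, came from animal 3. The log2 fold change was 1.80 ± 0.327 (edgeR adjusted p = 0.0136), and it was 1.45 ± 0.305 without animal 8 (edgeR adjusted p = 0.0665). Ifi47 was at 44.9, 49.9, 81.2, 104 and 157 CPM in p150-negative kidneys and at 6.41, 14.8 and 29 CPM (lowest, median, highest) in p150-positive ones. It was the 1 gene of the 7 whose groups did not overlap, a feature of 0.828% of genes. Its log2 fold change was 2.22 ± 0.389 (edgeR adjusted p = 0.0111), and 1.87 ± 0.399 without animal 8 (edgeR adjusted p = 0.0716). In a fit blocked on the leading part of each animal's identifier, neither was called (Irgm1 1.61 ± 0.306 and Ifi47 2.12 ± 0.449, edgeR adjusted p = 0.0548 and 0.0851).

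The largest kidney fold change was that of Iigp1, with 0, 79.7, 93.5, 118 and 507 CPM in p150-negative and 10, 21.4 and 37.3 CPM in p150-positive kidneys. The 0 belonged to animal 3, whose depth allows up to 11.1 CPM at a count of 0. The log2 fold change of 2.80 ± 0.636 was not called (edgeR adjusted p = 0.058), was 3.09 ± 0.450 without animal 3 (edgeR adjusted p = 0.00301) and fell to 1.74 ± 0.564 without animal 8 (edgeR adjusted p = 0.35). Igtp gave 2.01 ± 0.470 and Tgtp1 2.52 ± 0.665, and in both the same 4 of 5 p150-negative kidneys lay above every p150-positive one (edgeR adjusted p = 0.0689 and 0.115). Tgtp2 gave 1.94 ± 0.503 and Irgm2 1.73 ± 0.660 (edgeR adjusted p = 0.109 and 0.392). For Tgtp1, the value of 130 CPM in animal 8 stood beside 3.71 to 18.6 CPM in the other 4 p150-negative kidneys, and its log2 fold change without animal 8 was 1.10 ± 0.536.

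In the liver, none of the 7 genes was called with all libraries, against 6.94% of 9843 genes called higher and 4.76% lower, and none had groups that did not overlap, against 2.45% of genes. Only 1 had an unadjusted p under 0.05 (Irgm2, with edgeR), where 12.4% of genes had one in that direction. DESeq2 called none, and limma's voom called 4, with 771 genes called higher in all. The median log2 fold change was 0.51, from -0.84 for Iigp1 to 1.34 for Tgtp2, against -0.0362 over all genes. Without the p150-positive liver of animal 12, 6 of 7 were called higher, all but Iigp1, against 7.2% of genes, and the median of the 7 rose to 1.59. That library was singled out by its high level of these same genes, so these calls partly follow from the choice. The median p150-negative liver was above the p150-positive median for all 7 genes with animal 12 included.

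Tgtp1 showed the widest gap. It was at 24.7, 35 and 101 CPM (lowest, median, highest) in p150-negative livers, at 0 to 5.76 CPM in 6 p150-positive livers and at 254 CPM in that of animal 12. Its log2 fold change was 0.37 ± 0.926 with animal 12 and 3.96 ± 0.487 without (edgeR adjusted p = 0.875 and 2e-05). Irgm1 had 153, 237 and 484 CPM in p150-negative livers, 36.7 to 129 CPM in 6 p150-positive livers and 569 CPM in that of animal 12. Its log2 fold change of 0.83 ± 0.425 became 1.59 ± 0.272 without that library (edgeR adjusted p = 0.255 and 4.74e-04).

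Without animal 12, the p150-negative and p150-positive livers did not overlap for Irgm1, Tgtp1, Tgtp2 and Ifi47, which was so for 3.19% of genes. The library left out was the highest p150-positive liver for each IRG gene. The separation therefore partly follows from the choice, and the share over all genes carries no such choice. Tgtp2 then changed by a log2 of 2.88 ± 0.489, Ifi47 by 1.69 ± 0.286, Igtp by 1.499 ± 0.323 and Irgm2 by 1.42 ± 0.250 (edgeR adjusted p = 4.49e-04, 4.44e-04, 0.00356 and 6.3e-04). Tgtp1 and Tgtp2, at most at 5.76 and 4.87 CPM in the 6 p150-positive livers, then reached the test mainly through the p150-negative ones. Iigp1 differed from the rest. It was at 272, 372 and 822 CPM in p150-negative livers, at 290 to 408 CPM in 6 p150-positive livers and at 4070 CPM in that of animal 12, where it alone took 15742 counts. Its log2 fold change was -0.84 ± 0.555 with that library and 0.53 ± 0.239 without it (edgeR adjusted p = 0.411 and 0.184).

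**Figure D2:**
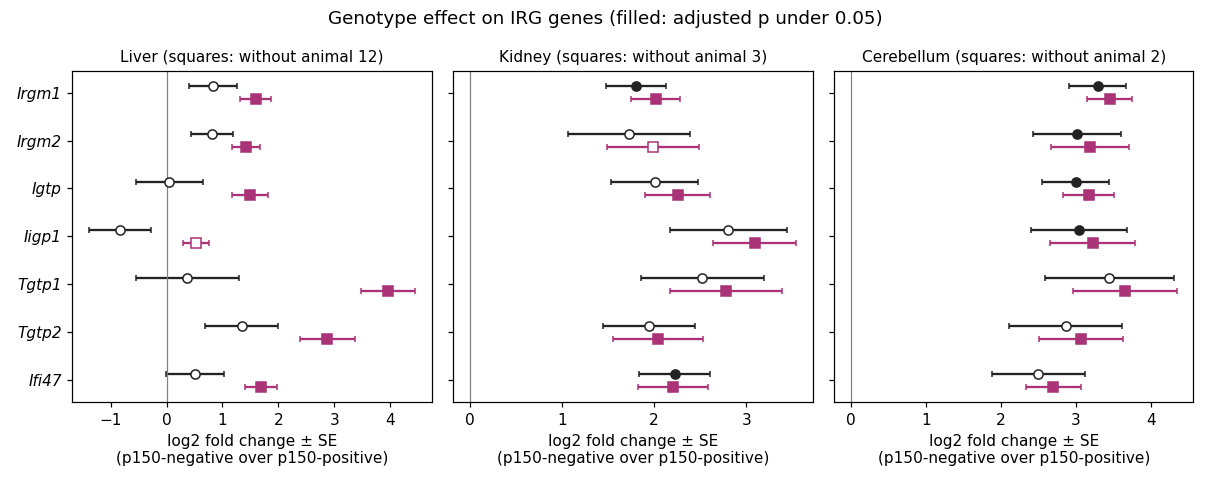
Log2 fold change of each IRG gene, p150-negative over p150-positive, with its standard error on the x axis and the genes on the y axis. Black circles use all libraries and purple squares leave out the liver of animal 12, the kidney of animal 3 or the cerebellum of animal 2, and filled symbols have an edgeR adjusted p under 0.05. In the cerebellum panel all estimates lie between 2.50 and 3.65, and in the liver panel all 7 squares lie to the right of their circles.

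Whether the p150-negative to p150-positive difference depended on the tissue was tested as an interaction term. Between liver and cerebellum it was smaller in liver for Irgm1 (difference of log2 fold changes -2.46 ± 0.600), Igtp (-2.95 ± 0.808) and Iigp1 (-3.89 ± 0.890), called at edgeR adjusted p = 0.0174, 0.0406 and 0.0104, against 1.31% of 14063 genes lower in liver. Without the liver of animal 12 the difference for Igtp was -1.51 ± 0.557 and was not called (edgeR adjusted p = 0.159), and those for Irgm1 and Iigp1 were -1.71 and -2.54 (edgeR adjusted p = 0.0458 and 0.0314), beside 183 genes lower in liver in all. Without both that liver and the cerebellum of animal 2, all 3 were called, at -1.86 ± 0.410, -1.69 ± 0.470 and -2.72 ± 0.578 (edgeR adjusted p = 0.00797, 0.0466 and 0.00595). That fit called 193 genes lower in liver in all. The cerebellum library was singled out by its low level of these same genes, and leaving it out raises the cerebellum effect. These calls, that of Igtp above all, therefore partly follow from the choice. With the animal as a block, since liver and cerebellum of a number come from 1 animal, 5 genes were called, the 3 above with Irgm2 (-2.32 ± 0.535, edgeR adjusted p = 0.0369) and Ifi47 (-1.73 ± 0.353, edgeR adjusted p = 0.0158), beside 111 genes lower in liver in all. With the block and without both libraries, Irgm2 was not called (-2.14 ± 0.583, edgeR adjusted p = 0.105). With limma's voom and all libraries, none of the 7 was called (adjusted p = 0.152, 0.433 and 0.211 for Irgm1, Igtp and Iigp1).

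Between liver and kidney, only Iigp1 was called, with a difference of -3.64 ± 0.889 (edgeR adjusted p = 0.025), against 0.655% of 12970 genes lower in liver. It was not called without the liver of animal 12 (-2.29 ± 0.657, edgeR adjusted p = 0.0857) or with the animal as a block (-1.62 ± 0.638, edgeR adjusted p = 0.393), and was called without both that liver and the kidney of animal 3 (-2.57 ± 0.504, edgeR adjusted p = 0.00383). The last of these fits called 105 genes lower in liver in all. Between kidney and cerebellum no member was called in the interaction, by edgeR, DESeq2 or voom, against 0.0535% of 14940 genes called lower in kidney by edgeR. At an unadjusted p under 0.05, 1 member was lower in kidney (Irgm1), as were 4.28% of genes.

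In p150-positive animals the level itself depended on the tissue. All 7 genes were called higher in liver than in cerebellum, against 31.2% of genes, by log2 differences from 3.20 (Tgtp2) to 8.34 ± 0.818 (Iigp1). Without the liver of animal 12 they were smaller, from 1.68 ± 0.713 (Tgtp2) to 6.99 ± 0.584 (Iigp1), with Tgtp1 at 2.98 in place of 6.59, and all 7 were still called, beside 4357 genes higher in liver in all. All 7 were also called higher in kidney than in cerebellum, against 27% of genes, by 1.69 (Igtp) to 3.03 ± 0.837 (Tgtp1). Between liver and kidney 6 were called higher in liver, against 20.5% of genes, with Iigp1 again the farthest apart, at 6.12 ± 0.734 (edgeR adjusted p = 2.58e-08) with all libraries and 4.76 ± 0.515 without the liver of animal 12 (edgeR adjusted p = 4.4e-09). Without that library, the liver to kidney differences of Irgm1 and Tgtp1 were 0.41 and -0.08 and were not called (edgeR adjusted p = 0.317 and 0.939). Tgtp2 differed by 0.34 ± 0.612 with all libraries (edgeR adjusted p = 0.691), and with the animal as a block it was lower in liver, by -1.25 ± 0.488 (edgeR adjusted p = 0.0484). The block also left Irgm1 (0.25 ± 0.238) and Tgtp1 (0.03 ± 0.501) uncalled between liver and kidney (edgeR adjusted p = 0.431 and 0.97). With limma's voom, Tgtp2 was not called between liver and cerebellum (voom adjusted p = 0.0635), nor Irgm2 between kidney and cerebellum (0.0527). Voom called 4 of the 7 higher in liver than in kidney, beside 2720 genes in all.

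Levels can be compared between genes only per exon length, given here as median CPM per kb of annotated exon. In p150-positive liver the order was Iigp1 (55.2), Igtp (29.5), Irgm1 (19.4), Ifi47 (14.1), Irgm2 (11.3), Tgtp1 (1.23) and Tgtp2 (0.852). The ranges of all neighbours in that order overlapped, with the library of animal 12 the highest for each gene. Between Iigp1 and Igtp, and between Irgm2 and Tgtp1, the ranges overlapped only through that library. In p150-positive kidney Irgm1 came first (22), with a range of 11.5 to 35.8 that overlapped that of Igtp (8.65, 6.77 to 17.9), and Iigp1 followed Igtp, Ifi47 and Irgm2 at 3.68. In p150-positive cerebellum Irgm1 (3.08) and Igtp (3.06) led with overlapping ranges, and Iigp1, the first in liver, was the second lowest at 0.403. In p150-negative animals Iigp1 led in liver (63.9), and Irgm1 led in kidney (70.1) and cerebellum (38.4), each with a range that overlapped that of Igtp, the next in order. Tgtp1 and Tgtp2 were the lowest pair in both genotypes of liver, kidney and cerebellum except that in p150-positive cerebellum Iigp1 (0.403) lay below Tgtp2 (0.46). Their place in these orders is uncertain. Of their 50-base windows, 81.2% (Tgtp1) and 86.6% (Tgtp2) also occur in another gene, and reads from there may not have been counted.

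**Figure D3:**
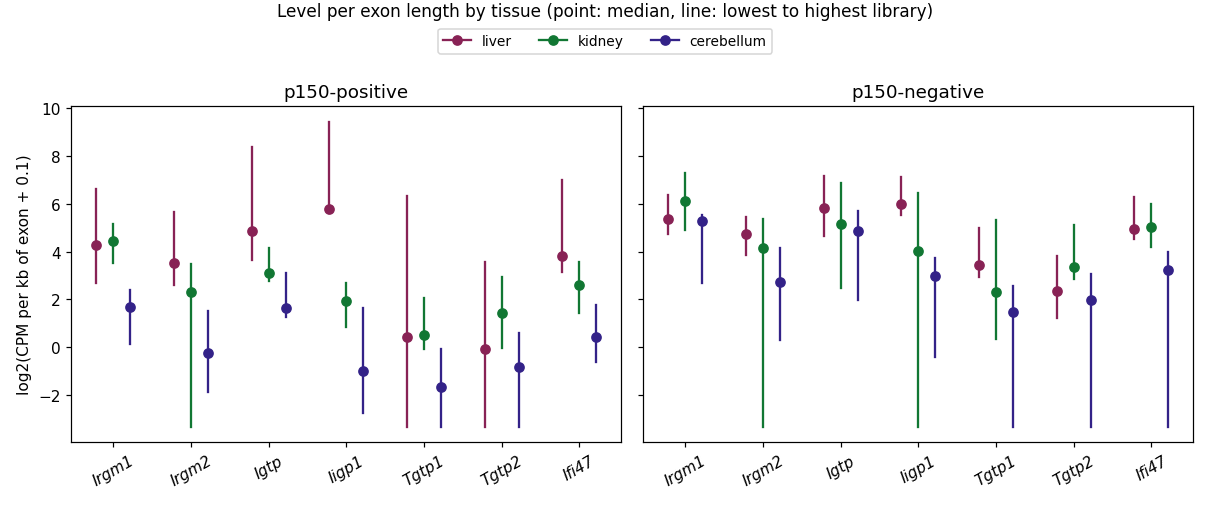
Level of each IRG gene per exon length, as log2(CPM per kb + 0.1) on the y axis, in p150-positive (left) and p150-negative (right) animals. Points are medians and lines run from the lowest to the highest library of a tissue. Iigp1 shows the widest separation of tissues in p150-positive animals, from a median of 55.2 CPM per kb in liver to 0.403 in cerebellum.

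The genes of the interferon pathway were read from lists set beside these 7. For the ligand, Ifng had 1 count in all kept livers together and no count in kidney or cerebellum, so interferon gamma RNA was not detectable at this depth. Of its receptor chains, Ifngr1 rose in liver. It was at 90 ± 29.6 against 59.9 ± 10.8 CPM (SD, n = 7 each), a log2 fold change of 0.63 ± 0.191 (edgeR adjusted p = 0.0368), and without the liver of animal 12 it was 0.61 ± 0.204 and not called (edgeR adjusted p = 0.0587). Ifngr2 gave 0.52 ± 0.189 (edgeR adjusted p = 0.0853). In cerebellum they gave -0.06 ± 0.195 and 0.35 ± 0.186, and in kidney 0.71 ± 0.391 and 0.11 ± 0.430, none called (edgeR adjusted p = 0.963, 0.575, 0.703 and 0.989). Of 13 tested receptors, kinases and transcription factors, 3 were called higher in liver (Ifngr1, Irf8 and Irf9) and none in kidney, and none was called lower in any of the 3 tissues.

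Stat2 and Irf9, both parts of the complex that binds the ISRE, rose in cerebellum. Stat2 changed by a log2 of 1.45 ± 0.263 and Irf9 by 3.51 ± 0.503 (edgeR adjusted p = 0.00568 and 6.26e-04). In liver, Irf9 (0.89 ± 0.227) and Irf8 (1.25 ± 0.286) were called besides Ifngr1 (edgeR adjusted p = 0.0119 and 0.00559). In kidney Stat2 gave 1.33 ± 0.324 (edgeR adjusted p = 0.0808). Without the kidney of animal 3, Stat2 (1.32 ± 0.287) and Irf9 (1.65 ± 0.379) were called higher there (edgeR adjusted p = 0.0312 and 0.0414). Irf1, an interferon-inducible transcription factor, was not called in any of the 3 tissues, with log2 fold changes of 0.35, 0.63 and 0.49 in liver, kidney and cerebellum (edgeR adjusted p = 0.509, 0.908 and 0.844).

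Genes induced mainly by type I interferon were called higher for 18 of 18 in liver, 11 of 16 tested in kidney and 16 of 17 tested in cerebellum, with median log2 fold changes of 2.19, 2.09 and 3.94. In liver this count was the same without animal 12. Oas1a, a sensor of double-stranded RNA, rose by 3.24 ± 0.325 in liver (edgeR adjusted p = 1.7e-06), and Rtp4 rose by 4.26 ± 0.492 in cerebellum (edgeR adjusted p = 1.65e-04). Lgals3bp rose by 2.39 ± 0.249 in kidney (edgeR adjusted p = 2.8e-04). Usp18, which damps signalling at the type I receptor, rose by 1.99 ± 0.257, 2.80 ± 0.509 and 5.37 ± 0.639 in liver, kidney and cerebellum (edgeR adjusted p = 2.39e-05, 0.0136 and 1.84e-04), and of the inhibitors tested 3 of 6, 1 of 6 and 1 of 7 were called higher.

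Genes listed as induced mainly by interferon gamma were called higher for 0 of 9 in liver, 1 of 8 in kidney (Tap1, a peptide transporter, 2.12 ± 0.370, edgeR adjusted p = 0.0109) and 1 of 7 in cerebellum (Psmb8, an immunoproteasome subunit, 2.85 ± 0.566, edgeR adjusted p = 0.0118). Which interferon raised the called genes was not tested. Without the liver of animal 12, the kidney of animal 3 or the cerebellum of animal 2, these counts were 5 of 10, 2 of 9 and 2 of 6. The MHC class II gene H2-Eb1 was at 1.23 ± 1.05 CPM in p150-negative and 5.11 ± 2.43 CPM in p150-positive cerebellum, opposite in sign to the IRG genes and not called (edgeR adjusted p = 0.176). The guanylate-binding proteins, GTPases that work beside the IRG proteins at vacuoles, were called higher at 4 of 8 in liver, 0 of 6 in kidney and 3 of 6 in cerebellum. Without the liver of animal 12, the kidney of animal 3 or the cerebellum of animal 2, these counts were 7 of 8, 3 of 7 and 4 of 6. The 12 genes of the Atg8 conjugation system, which directs IRG proteins to vacuoles, had medians of -0.158, -0.158 and -0.0148 and 1 lower call in liver. Of 10 further IRG genes, 4, 2 and 3 had enough reads for a test: Gm4951 rose in cerebellum, from 0.446 ± 0.396 to 17.6 ± 9.62 CPM (log2 fold change 5.10 ± 0.815, edgeR adjusted p = 0.00147), and Irgq fell by 1.45 on the log2 scale in liver (SE 0.357, edgeR adjusted p = 0.00953). Gm4951 had 13 counts in all p150-positive cerebella and was tested only through the p150-negative ones, so its call partly follows from that. Gm12250 (Irgb10), another effector, was not called with all libraries in liver (0.46 ± 0.727, edgeR adjusted p = 0.777) or cerebellum (2.72, edgeR adjusted p = 0.335) and had too few reads for a test in kidney. It was called without the liver of animal 12 (2.63 ± 0.40) and without the kidney of animal 3 (3.65 ± 0.491, edgeR adjusted p = 1.43e-04 and 0.00198), and not without the cerebellum of animal 2 (2.93 ± 0.898, edgeR adjusted p = 0.197). In p150-positive kidneys Gm12250 was at 1.06 ± 0.663 CPM (SD), so it reached the kidney test only through the p150-negative libraries. Its kidney call therefore partly follows from the filter on low counts.

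**Figure D4:**
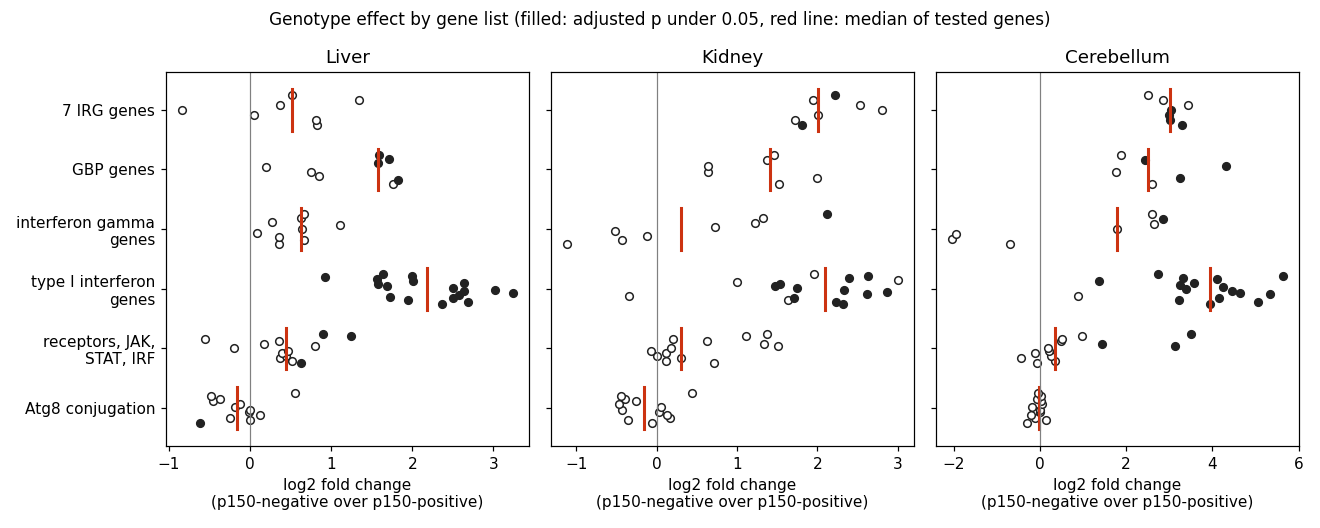
Log2 fold change (x axis, p150-negative over p150-positive) of each tested gene of 6 lists (y axis) in the 3 tissues, with all 41 libraries. Filled points have an edgeR adjusted p under 0.05, and red lines are the medians of the tested genes. The 7 IRG genes have medians of 0.51, 2.01 and 3.01, below those of the type I interferon genes (2.19, 2.09 and 3.94) in each panel.

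Library by library, the summed IRG level was set beside the summed level of the 18 type I interferon genes. In cerebellum both sums were low in the same 8 libraries, the 7 p150-positive ones and that of animal 2. In liver the p150-positive library of animal 12 held 1120 CPM of type I interferon genes, against 307 to 583 CPM in the other p150-positive livers and 982 to 3840 CPM in the p150-negative ones, while its IRG sum was the highest of all. Its guanylate-binding proteins summed to 621 CPM, against 44.6 to 117 CPM in the other p150-positive and 129 to 779 CPM in the p150-negative livers, and its Irf1 was at 107 CPM. The cerebellum of animal 12 had the highest IRG sum of the p150-positive cerebella, 84.2 CPM.

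**Figure D5:**
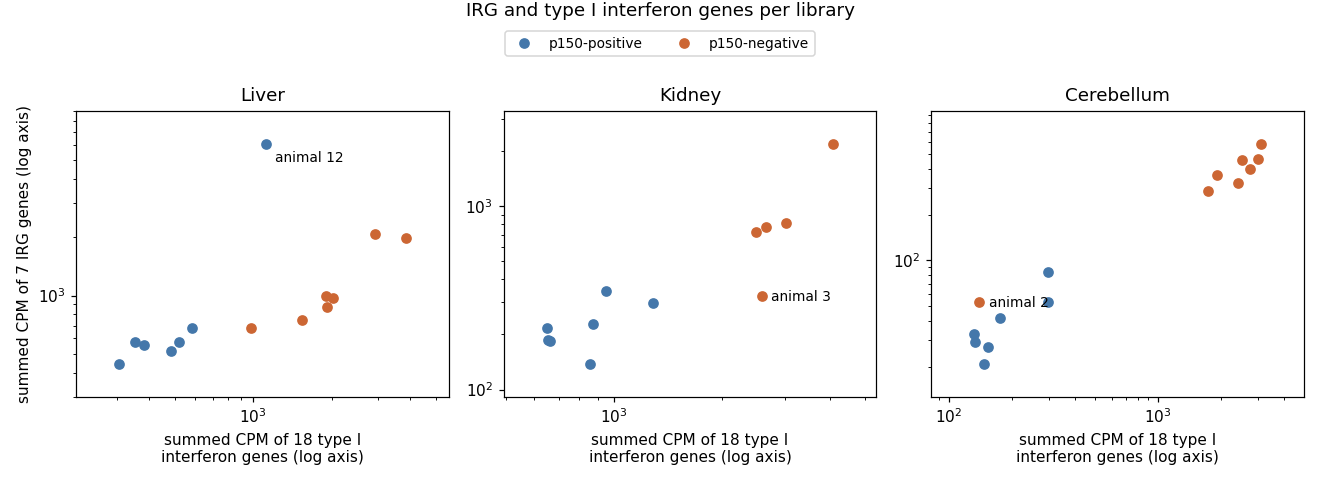
Summed CPM of the 7 IRG genes (y axis, log scale) against summed CPM of 18 type I interferon genes (x axis, log scale), with 1 point for each library and 1 panel for each tissue. Blue is p150-positive and orange p150-negative, and the libraries of animal 12, animal 3 and animal 2 are named. Animal 12 lies at 6100 CPM of IRG genes with 1120 CPM of type I interferon genes, away from the other livers, and animal 2 lies among the p150-positive cerebella.

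Markers of blood cells moved with genotype in liver, and their part in the IRG results was not tested. The 8 neutrophil markers summed to 423 to 1630 CPM in p150-negative and 26.2 to 174 CPM in p150-positive livers, with 7 of 7 tested called higher, and 7 of 8 macrophage markers were called higher, with sums of 718 to 1790 against 242 to 542 CPM. In the liver of animal 12 the neutrophil sum was 79.6 CPM, within the p150-positive range. In kidney the neutrophil sums were 108 to 243 against 7.38 to 81.6 CPM, with 1 of 3 tested called higher and, without animal 3, 5 of 6. More markers passed the filter on low counts without animal 3, so these kidney counts cover different sets of markers. The macrophage sums there ran from 3.71 to 230 against 54.5 to 159 CPM, with 0 of 6 called. T and NK cell markers, the usual sources of interferon gamma, had no call in liver (0 of 3 tested) or kidney (0 of 2). Their liver sums were 17.3 to 71 against 6.17 to 22 CPM, and the tested 3 had log2 fold changes of 0.98 to 1.62, with the highest that of Nkg7 (edgeR adjusted p = 0.0521). None passed the filter on low counts in cerebellum. There, 1 of 5 macrophage, 0 of 5 neutrophil and 0 of 4 microglia markers were called higher, the macrophage sums were 120 to 267 against 65.5 to 150 CPM and the microglia sums 58.2 to 188 against 50.3 to 125 CPM. The liver macrophage marker Clec4f and the T cell marker Cd8a had no count in any cerebellum. In kidney and cerebellum, too, the part of these cells was not tested. In whole tissue, fewer cells of a type and less RNA per cell cannot be told apart.

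The 7 genes also varied together between libraries of the same tissue and genotype. Over the 41 libraries, the deviations of log2 CPM from the group mean correlated between pairs of the 7 with r from 0.391 to 0.87 and a median of 0.717. By tissue, liver had a median of 0.871, kidney of 0.566 and cerebellum of 0.752, and the lowest kidney pair, Irgm2 and Ifi47, had r = 0.0689. Pairs of genes shared the library, its depth and any animal that stood apart. Among 8730 other genes tested in all tissues, those whose deviations were most like the mean of the 7 included Psmb9 (r = 0.855), Psmb8 (0.849), H2-T23 (0.836), Gbp3 (0.829), Shisa5 (0.812), Oas1g (0.789) and Gbp7 (0.788), where the median over those genes was 0.201 and the 99th percentile 0.603. Psmb8 and Psmb9 encode immunoproteasome subunits, H2-T23 an MHC class I molecule and Oas1g a member of the oligoadenylate synthetase family. Of these 7, H2-T23, Gbp3, Shisa5, Oas1g, Gbp7 and Psmb8 were called higher in cerebellum, Gbp3, Shisa5 and Oas1g in liver, and Oas1g in kidney (3.79 ± 0.765, edgeR adjusted p = 0.0293).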

How the data were processed

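The authors deposited 1 table of raw read counts per gene, with 46 columns that were matched to samples by title. Per the labels' protocols, RNA was extracted with TRIzol and Directzol columns, treated with DNase and turned into libraries with Nextera XT. The tools named in the submitters' processing notes are FastQC 0.11.3, STAR 2.4.2a, SAMtools 1.2, Picard 1.134 and HTSeq 0.4.1, with the genome GRCm38; strand setting and annotation release are not given in the sources used here. Of 53471 entries, 6 repeated identifiers were used once, and entries without a symbol held 0.267% of counts.

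The 7 genes, the gene lists and the 5 left-out libraries were chosen with earlier results of these data known. Counts were tested in R 4.3.3 with edgeR 4.0.16 (TMM, filterByExpr with min.count 10 and min.total.count 15, quasi-likelihood test, Benjamini-Hochberg adjustment); SE is the log2 fold change over the root of the F statistic. All 7 genes are named; of each list up to 4 with the smallest adjusted p could be named, with Ifng, Ifngr1, Ifngr2 and Irf1. The most alike genes are the 8 with the highest correlation. Of the genes these rules name, 1 is not reported here. Alternatives were RLE size factors, DESeq2 1.42.0, voom of limma 3.58.1, other filters, robust dispersion, a block for the leading part of each animal's identifier, whose meaning the labels do not give, Xist as a covariate, Tgtp1 and Tgtp2 summed, all labelled libraries, no library under 1 M counts, each library left out and, between tissues, the animal as a block and 1 fit of all 3 tissues. Leaving out the liver of animal 12, the kidney of animal 3 and the cerebellum of animal 2 from between-tissue fits was chosen after seeing the data. Within a tissue every library was left out in turn, and which of these fits to describe was also chosen after seeing the data. Scripts were tested on simulated data.

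The 2 genotypes share no animal, so nothing pairs them within a tissue. Between tissues the numbers pair libraries of 1 animal: deviations of all genes from the group means correlated by -0.014 to 0.25 between liver and kidney, -0.006 to 0.254 between liver and cerebellum and -0.186 to 0.214 between kidney and cerebellum. A count of 0 allows up to 3 counts, for counting error only.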

Additional observations from a re-analysis of the deposited data

Results flagged for a closer look

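In groups of 5 to 8 libraries, 1 library lay far from the rest for 13 combinations of gene and group, by the gap to its nearest neighbour over the range of the group. The cut-off is one that about 1 group in 20 passes by chance where values are normally distributed. Its rate for CPM, and for genes that vary together, was not tested. Of the 13 combinations, 7 were the p150-positive liver of animal 12, which had 569 CPM of Irgm1 (next highest 129), 185 of Irgm2 (61.2), 667 of Igtp (73.6), 4070 of Iigp1 (408), 254 of Tgtp1 (5.76), 34.1 of Tgtp2 (4.87) and 317 of Ifi47 (41.3). Another 3 were the p150-positive cerebellum of the same animal, with 17.3 CPM of Igtp (next highest 8.44), 2.76 of Tgtp1 (1.08) and 4.14 of Tgtp2 (1.75), the last 2 from few reads. The other 3 were the p150-negative kidney of animal 8, with 507 CPM of Iigp1 (118), 130 of Tgtp1 (18.6) and 100 of Tgtp2 (32.8).

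The genotype effect differed between tissues by the interaction test for 4 results. Iigp1 had a difference of log2 fold changes of -3.64 in liver against kidney. In liver against cerebellum the differences were -2.46 for Irgm1, -2.95 for Igtp and -3.89 for Iigp1. The report gives each without the libraries named there.

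Among the libraries left out, that labelled kidney of p150-negative animal 11 had a summed IRG level of 1090 CPM, against at most 343 CPM in the p150-positive kidneys that were used. It does not carry kidney identity genes, so this value is not a kidney level.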

How the results depend on the processing

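No paired analysis was possible within a tissue because the 2 genotypes share no animal. Between tissues the animal was used as a replicate block. Of the 7 genes, the number called in liver was 4 with limma voom and 0 with the other alternatives other than leaving out libraries; the stricter filter left 6 of the 7 genes tested in liver and 5 in cerebellum. In kidney it was 0 with all labelled libraries, 6 with DESeq2, 5 with no filter, 0 with the identifier part as a block and 6 without libraries under the depth limit, beside 2 in the report. In cerebellum it was 7 with DESeq2, 1 with limma voom and 2 with the identifier part as a block, beside 4. Leaving out each library in turn gave 0 to 6 in liver (6 without animal 12), 0 to 6 in kidney (6 without animal 3, 0 without animal 8) and 3 to 7 in cerebellum (7 without animal 2, 3 without animal 4, 10 or 15). Over all genes, the number higher in kidney was 46, against 147 with DESeq2, 91 with no filter, 15 with the identifier block and 1 with all labelled libraries. In cerebellum it was 95, against 173 with DESeq2 and 28 with voom, and in liver 683, against 441 with all labelled libraries. Among the 7 IRG genes, the genotype effect in liver against kidney was called for 0 with the replicate block, with all labelled libraries, with voom and without the liver of animal 12, beside 1. In liver against cerebellum it was called for 5 of them with the block and 0 with voom, beside 3. Over all genes, those called lower in liver against kidney were 45 with the block and 85 with voom, beside 85. In liver against cerebellum they were 111 and 114, beside 184.

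Directions that turned were these, as log2 values, and the cause was not tested. In liver, Igtp was -0.13 with all labelled libraries, and leaving out each library moved it from -0.15 to 1.499 and Iigp1 from -0.99 to 0.53. For the genotype effect in liver against kidney, Tgtp1 was 1.75 with the replicate block, 1.36 with voom, 1.40 without the liver of animal 12, 1.16 without that liver and the kidney of animal 3, and 1.41 with the block and without both. Tgtp2 was 1.15, 0.58, 0.94, 0.84 and 1.05 in the same order. For the level in liver against kidney of p150-positive animals, Tgtp2 was -1.25, -0.72, -1.19, -1.19 and -1.24 in that order, and Tgtp1 was -0.076 and -0.054 without 1 or both libraries. For the genotype effect in liver against cerebellum, Tgtp1 was 0.59 with voom, 0.53 without the liver of animal 12, 0.31 without that liver and the cerebellum of animal 2, and 0.028 with the block and without both, and Tgtp2 was 0.22 with voom and 0.029 without the liver. For kidney against cerebellum, Ifi47 was 0.58 with voom and Iigp1 was 0.078 without the kidney of animal 3. Not counting libraries left out in turn, single-gene values kept direction and side of the threshold in 560 cases, passed it anew in 27, lost it in 29 and turned in 26. Genes under 10 CPM rest on few reads in libraries near 1 M counts.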
